A study of Mus musculus with 5 samples.

Results

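Cluster 12 of the authors' deposited grouping holds 311 of the 10275 CD45+ cells sorted from mouse thyroid, named here as activated, cycling T cells marked by Tnfrsf9 until the markers are checked below. Its members are the cells that the deposited cell table numbers 12 among 17 clusters of the integrated data. The mice were NOD.WT animals of both sexes, 4 to 6 weeks old when treatment began. One group received a pair of antibodies into the peritoneal cavity, against PD-1 (clone RPM1-14) and against CTLA-4 (clone 9D9), at 10 mg/kg per dose for 4 weeks (immune checkpoint inhibition, ICI), and the other received isotype control antibodies (clones 2A3 and MPC11). Cells of 16 ICI mice were pooled into 4 libraries and cells of 10 isotype mice into 1 library. The labels do not give the mice per library, so p-values below measure only the spread between libraries, and the single isotype library is given the spread of the ICI libraries. NOD is an inbred strain prone to autoimmunity, and mice of both groups carry that background.

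A T cell that meets its antigen with costimulation enlarges, builds ribosomes, copies its DNA and divides. Tnfrsf9 (4-1BB) and Tnfrsf4 (OX40) are costimulatory receptors of the tumour necrosis factor receptor family that appear on the surface after such activation, and regulatory T cells, which restrain other T cells through the factor Foxp3, carry them as well. PD-1 and CTLA-4, the targets of the antibodies, are inhibitory receptors that activated T cells display.

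Cluster 12 held 30, 8, 14 and 215 cells in ICI 1 to 4 and 44 cells in the isotype library. These were 1.97%, 0.656%, 1.20% and 4.28% of the cells of ICI 1 to 4 and 3.25% of isotype cells. The ICI mean of 2.03% ± 1.60 (SD, n = 4) differed from the isotype value by -1.23 points, and 3 of 4 ICI libraries were lower. An exact two-sided permutation test over libraries gave p = 0.8, where 4 libraries against 1 cannot go below 0.2. ICI 4 alone was above isotype, so the ICI shares lay on both sides of it.

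Depth and library makeup differed as well. Summed UMIs (unique molecular identifiers, 1 per counted transcript) of cluster 12 ran from 28431 in ICI 2 to 2718726 in ICI 4, with 442715 in isotype, and ICI 4 supplied most of the cells. The median cell held 3319.5 to 10557 UMIs by library, against 1714 to 4214 in other cells of the same libraries. In 15 cluster 12 cells the barcode also occurred in another library, 11 of them in ICI 2 and ICI 3, which share 139 barcodes over all clusters. Xist, the transcript of the inactive X chromosome in female cells, was found in 26 of 30, 3 of 8 and 8 of 14 cells of ICI 1 to 3, in 0 of 215 cells of ICI 4 and in 0 of 44 isotype cells. Genes of the Y chromosome were found in 1, 0, 3, 159 and 34 cells in the same order. ICI 4 and isotype thus matched in this respect, and ICI 1 to 3 stood apart from both.

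T cell genes were detected in nearly all cells, at levels close to those in other cells. Cd3e, a chain of the T cell receptor complex, was detected in 98.1% of cluster 12 cells, and a receptor beta variable segment in 301 of 311 cells. Among 25 such segments counted, 23 were seen, most often Trbv13-2 in 123 cells. The T cell list had 0 of 10 members at 1.5-fold or more over other cells (median fold 0.908), and the myeloid (0 of 12), thymocyte (0 of 10) and B cell (0 of 7) lists had none either. At least 2 of 10 T cell genes and 2 of 12 myeloid genes were found together in 3, 0, 4, 19 and 10 cells of ICI 1 to 4 and isotype. These cells were kept, and each result they touch is also given without them.

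The genes that led the cluster over all other cells are a description, since the clustering used them, and carry no test. Levels are CPM, the UMI counts of a gene scaled to a common library total, and folds use a pseudocount of 10 CPM. Nrgn, which encodes a small calmodulin-binding protein best known from neurons, ranked first, with 121 CPM in cluster 12 and 19.1 CPM elsewhere, a fold of 4.51. It was detected in 21.2% of cluster 12 cells and 3.21% of others. Of its cluster 12 UMIs, 1 cell held 33.6% of 339 in ICI 4 and 1 cell held 36.6% of 82 in isotype. Tnfrsf9 followed at 205 against 48.0 CPM (3.70-fold), detected in 35.7% of cells. Tnfrsf4 reached 491 against 189 CPM (2.51-fold) in 57.2% of cells. Of the 25 leading genes 4 stand on the replication, mitosis or cycling cell lists used here. Leading genes known for a part in DNA copying or division, on these lists or not, include Tk1 (thymidine kinase, 2.95-fold) and Cep55 (cell separation, 2.89-fold). They also include Asf1b (a histone chaperone, 2.69-fold), Hmmr (a spindle protein, 2.48-fold), Cks1b (a cofactor of cyclin-dependent kinases, 2.45-fold) and Birc5 (survivin, 2.30-fold). Mif, a cytokine, and Itm2a, a membrane protein induced in activated T cells, were at 2.23-fold and 2.20-fold. Of 5554 genes seen in enough cells, 50 were at 2-fold or more, and the median fold over all of them was 0.976.

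The 3 promoter stretches below are shown because members of this leading set carry repeated CCAAT boxes, the letters bound by the factor NF-Y, ahead of their start. They are RefSeq sequences of build GRCm38.p6, the 250 bases before the annotated start or the part of them outside GENCODE M21 exons, read 5′ to 3′ on the gene's strand. Capitals mark CCAAT and its reverse complement ATTGG.
Tnfrsf9, chr4:150919905-150920154, + strand: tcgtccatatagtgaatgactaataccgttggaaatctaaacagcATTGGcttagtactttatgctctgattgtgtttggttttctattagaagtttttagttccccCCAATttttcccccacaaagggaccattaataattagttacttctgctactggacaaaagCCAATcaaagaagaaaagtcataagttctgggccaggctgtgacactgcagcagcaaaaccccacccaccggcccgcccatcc
Hmmr, chr11:40733438-40733666, - strand: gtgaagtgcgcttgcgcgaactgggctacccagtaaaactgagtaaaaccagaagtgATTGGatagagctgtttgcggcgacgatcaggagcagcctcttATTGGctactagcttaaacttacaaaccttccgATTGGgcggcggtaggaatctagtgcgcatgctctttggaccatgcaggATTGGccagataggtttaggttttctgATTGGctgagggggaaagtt
Tcf19, chr17:35516825-35517074, - strand: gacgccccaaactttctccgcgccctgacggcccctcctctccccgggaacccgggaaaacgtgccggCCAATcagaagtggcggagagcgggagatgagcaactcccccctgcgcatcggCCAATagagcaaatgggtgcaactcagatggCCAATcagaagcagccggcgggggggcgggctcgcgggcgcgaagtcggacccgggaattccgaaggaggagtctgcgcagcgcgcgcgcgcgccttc
The Tnfrsf9 stretch holds 3 boxes, the Hmmr stretch 5 and the Tcf19 stretch 3. RefSeq lists a second Tnfrsf9 promoter, chr4:150927749-150927998, with 0 boxes, and GENCODE also has a transcript that starts upstream of the stretch shown, so it lies inside the gene's full interval. Among the 25 leading genes, 24 matched a RefSeq promoter by symbol. On either strand, 13 of these 24 held at least 1 CCAAT box, against 37.5% of 27025 genes. At least 3 boxes occurred in 5 of the 24 (Tnfrsf9, Asf1b, Hmmr, Tcf19 and Cks1b), against 3.23% of all genes. TTTGAA, letters of the cell cycle homology region, occurred in 4 of the 24, against 18.3% of all genes, and TTTCGCGC or TTTGGCGC, letters bound by E2F factors, in 0 of the 24, against 0.759%. Both strands were searched for each motif, and a match is a description of these letters and not a binding site.

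No marker singles the cluster out on its own. Summed over libraries, Nrgn was highest in cluster 12 among the 17 clusters, ahead of 88.0 CPM in cluster 8. In ICI 4, however, it was at 165 CPM in cluster 6 and 145 CPM in cluster 8, above 125 CPM in cluster 12. In isotype it was at 185 CPM in cluster 12 and 175 CPM in cluster 10, and in ICI 1 at 0 in cluster 12. The next levels are again summed over libraries. Tnfrsf9 was highest in cluster 4, whose leading genes are those of regulatory T cells, at 336 CPM, with 213 CPM in cluster 8. Tnfrsf4 was also highest in cluster 4, at 1575 CPM. Tk1 was highest in cluster 5, the cluster with the most cell cycle transcripts, at 155 CPM against 145 in cluster 12, while Tnfrsf9 was at 5.83 CPM there. In these sums over libraries cluster 12 thus had Tnfrsf9 near the level of cluster 8 and below that of cluster 4. Its Tk1 was near the level of cluster 5. Single libraries differed. Tnfrsf9 in clusters 12, 4 and 8 was at 186, 376 and 325 CPM in ICI 4 and at 197, 360 and 164 CPM in isotype. In ICI 1 it was at 481, 137 and 194 CPM. Tnfrsf4 was also above cluster 4 in ICI 1 (943 against 749 CPM), unlike in ICI 4 and isotype. Tk1 in clusters 12 and 5 was at 166 and 153 CPM in ICI 4, 79.3 and 214 CPM in ICI 1, and 67.8 and 126 CPM in isotype.

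Summed over libraries, the cell cycle lists were also high in cluster 12 and higher in cluster 5. Of 30 DNA replication genes 24 were at 1.5-fold or more over other cells (median fold 1.81), and of 27 mitosis genes 23 (median fold 1.87). Summed over the list, replication genes were at 4882 CPM in cluster 12 and 8552 CPM in cluster 5, and mitosis genes at 3650 and 6263 CPM. Ribosome biogenesis genes and other MYC targets had 8 of 15 members at that fold, coinhibitory receptors 3 of 10, costimulatory receptors 2 of 10 and regulatory T cell genes 3 of 8. Their median folds were 1.53, 1.29, 1.04 and 1.36, beside 0.976 over all genes seen in enough cells. The share of all genes at 1.5-fold was not counted. Summed ribosome biogenesis genes were at 5672 CPM in cluster 12 and 5861 CPM in cluster 5. The genes whose level over clusters was most like that of Tnfrsf9, by Pearson r of log2(CPM + 10) over 17 clusters among 6579 genes, were Ier5l (r = 0.903), Tigit (0.80), Tnfrsf1b (0.759), Nt5e (0.747), Gzmb (0.729), Sdf4 (0.726), Pdcd1 (0.725), Rgs16 (0.723), Tnfrsf18 (0.721) and Lag3 (0.702). The points are sums over clusters that share libraries, and r carries no test.

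The marker levels varied widely among the ICI libraries. Tnfrsf9 (chr4:150914562-150946102 on GRCm38, + strand) was at 481, 0, 198 and 186 CPM in ICI 1 to 4 and at 197 CPM in isotype. The ICI 3 level rests on 17 UMIs in 2 cells, with 76.5% of these UMIs in 1 cell. Tnfrsf4 (chr4:156013843-156016612, + strand) was at 943, 106, 35.0 and 498 CPM and at 341 CPM in isotype. Both receptors were highest in ICI 1, where 38.1% of the Tnfrsf4 UMIs lay in 1 cell. Isotype lay inside the ICI range for each. Nrgn (chr9:37544492-37552904, - strand) was at 0, 0, 23.3 and 125 CPM and at 185 CPM in isotype. In ICI 1 no Nrgn UMI was found in 30 cells, which allows up to 10.0% of cells with a UMI. Isotype was above every ICI library for Nrgn, yet the difference did not pass the test given below.

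Tk1 (chr11:117815526-117826092, - strand) was at 79.3, 70.3, 58.4 and 166 CPM and at 67.8 CPM in isotype. These Tk1 levels rest on 17, 2, 5, 451 and 30 UMIs, and 58.8% of those in ICI 1 lay in 1 cell. Asf1b (chr8:83955507-83970197, + strand) was at 65.3, 35.2, 46.7 and 169 CPM and at 122 CPM in isotype. Hmmr (chr11:40701395-40733422, - strand) was at 37.3, 35.2, 23.3 and 63.6 CPM and at 88.1 CPM in isotype. ICI 4 was the highest ICI library for all 3 cycle markers, and isotype was above every ICI library for Hmmr. In edgeR's quasi-likelihood test with Benjamini-Hochberg adjustment over all genes none of the 6 markers passed, with log2 fold changes of ICI over isotype of -1.30 (SE 0.68) for Nrgn, 0.74 for Tnfrsf9, 1.07 for Tnfrsf4, 0.93 for Tk1, 0.03 for Asf1b and -0.69 for Hmmr.

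**Figure D1:**
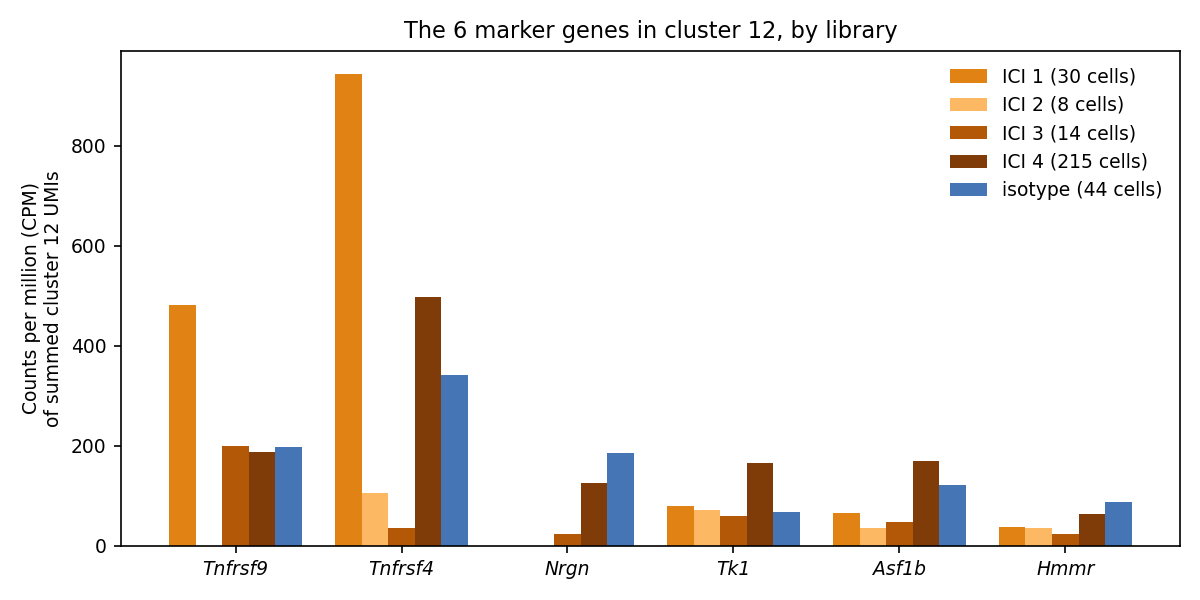
CPM of summed cluster 12 UMIs (vertical axis) for the 6 marker genes in the 4 ICI libraries and the isotype library, 1 bar per library and no error bar since each is a single sum. Tnfrsf9 and Tnfrsf4 peak in ICI 1 at 481 and 943 CPM, while Tk1 and Asf1b peak in ICI 4 at 166 and 169 CPM.

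The phase calls were set beside the receptors and Nrgn. The deposited phase calls put 73.3%, 100%, 78.6% and 82.3% of cluster 12 cells of ICI 1 to 4 in S or G2M, and 88.6% of isotype cells. Among libraries with at least 10 cells, the ICI mean was 78.1% ± 4.52 (SD, n = 3), a difference of -10.6 points, and all 3 were below isotype. The exact two-sided permutation test gave p = 0.25, the smallest value that 3 libraries against 1 allow. The calls read cell cycle genes that the clustering also used.

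In ICI 4, cells called G1, S and G2M numbered 38, 119 and 58, and Mki67, which dividing cells transcribe, was found in 0, 73 and 56 of them. Tnfrsf9 was at 832 CPM in cells called G1, 107 CPM in those called S and 132 CPM in those called G2M. Tnfrsf4 went the same way, with 1117, 468 and 361 CPM. Both receptor levels were thus highest in cells called G1, where no Mki67 was found. Detection per cell differed less for Tnfrsf4, found in 80 of 129 cells with a Mki67 UMI and 54 of 86 without, than for Tnfrsf9, found in 41 and 38 of them. Nrgn had another pattern, with 3.71 CPM in G1, 180 CPM in S and 61.3 CPM in G2M. Of the Nrgn UMIs 33.6% lay in 1 cell in ICI 4, and 36.6% in 1 cell in isotype.

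In the isotype library Tnfrsf9 was again highest in G1 and Nrgn in S, over fewer cells, while the order of S and G2M for Tnfrsf9 was turned. Its 5, 28 and 11 cells called G1, S and G2M held Tnfrsf9 at 1275, 204 and 38.1 CPM and Nrgn at 0, 288 and 38.1 CPM. Mki67 was found in 0, 10 and 10 of them, so most cells called S there had no Mki67 UMI. In ICI 1, Tnfrsf9 was at 434, 546 and 253 CPM over 8, 17 and 5 cells, so G1 was not the highest phase in that library, and Mki67 was found in 3 of the 17 cells called S. A call of S and a Mki67 UMI thus often did not coincide in these libraries. Summed DNA replication genes were nonetheless higher in S than in G1. They were at 4092 against 396 CPM in ICI 1 and at 5252 against 520 CPM in isotype. The calls read such genes, so these sums are a description.

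**Figure D2:**
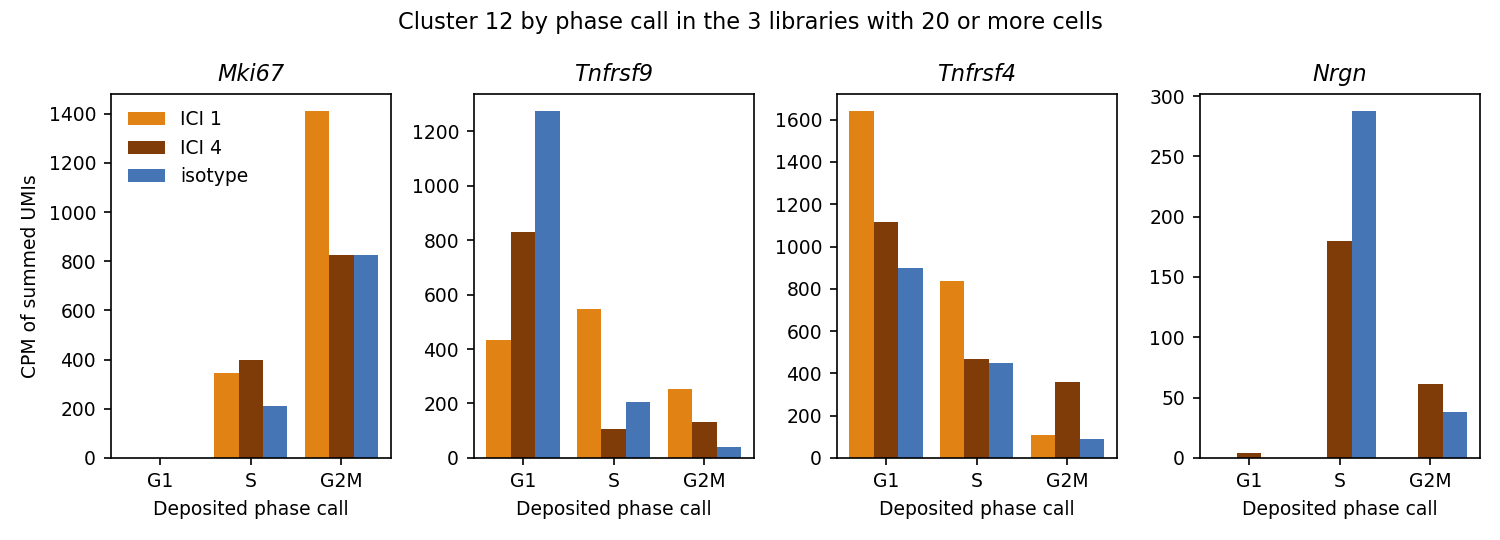
CPM of summed UMIs (vertical axes) for Mki67, Tnfrsf9, Tnfrsf4 and Nrgn by deposited phase call in the 3 libraries with at least 20 cells, 1 bar per library. Mki67 is absent from cells called G1, Tnfrsf9 is highest in G1 in ICI 4 (832 CPM) and isotype (1275 CPM) but not in ICI 1, and Nrgn is highest in S in ICI 4 (180 CPM) and isotype (288 CPM).

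A second deposited grouping, made within each library before integration, splits the cluster further. What its numbers mean is not stated, so they are read within a library only and as a description. In ICI 4 the largest of these groups, group 4, held 128 of the 215 cells, with Mki67 at 628 CPM in 114 cells, Tk1 at 210 CPM, Tnfrsf9 at 98.4 CPM, Tnfrsf4 at 424 CPM in 78 cells and Nrgn at 136 CPM. Group 3 held 34 cells, 22 of them called G1, with Tnfrsf9 at 735 CPM, Tnfrsf4 at 1130 CPM, the ribosome assembly gene Npm1 at 2337 CPM and Myc, which drives growth, at 253 CPM. Group 1 held 30 cells, with Nrgn at 297 CPM in 8 cells, and Mki67 in 1 cell although 20 were called S. Itm2a was at 2117 CPM there, Igfbp4 at 1875 CPM and the chromatin organiser Satb1 at 945 CPM. Group 5 held 12 cells with Cd8a at 711 CPM and Ly6a, an interferon-inducible surface protein, at 2614 CPM.

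Isotype cells fell mostly into a pair of groups. Group 1 held 20 cells with Mki67 at 583 CPM in 16 cells. Group 3 held 19 cells with Nrgn at 413 CPM in 6 cells, Tnfrsf9 at 413 CPM in 10 cells and Mki67 in 1 cell, although 15 were called S. In ICI 1, 24 of 30 cells formed group 2, with Tnfrsf9 at 558 CPM, Tnfrsf4 at 1183 CPM, Npm1 at 2809 CPM and Mki67 in 1 cell. In ICI 4 and isotype cluster 12 thus joined a large group rich in cycle transcripts, which also held Tnfrsf4, and groups with less Mki67. Tnfrsf9 was higher in group 3 of each library than in its cycling group, but was at 89.0 CPM in ICI 4 group 1. In ICI 1 the cells with more Mki67 lay in groups 0, 1 and 4, of 3, 1 and 2 cells. Tnfrsf4 was found in 1, 0 and 0 of them. Over all libraries 46 of the 111 cells with a Tnfrsf9 UMI also had one of Mki67, against 115 of 200 without Tnfrsf9. For Tnfrsf4 they were 90 of 178 cells with it and 71 of 133 without. The activated and cycling parts of the name thus rest on transcripts found together in only part of the cells. The part of missed detection in these counts was not tested.

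**Figure D3:**
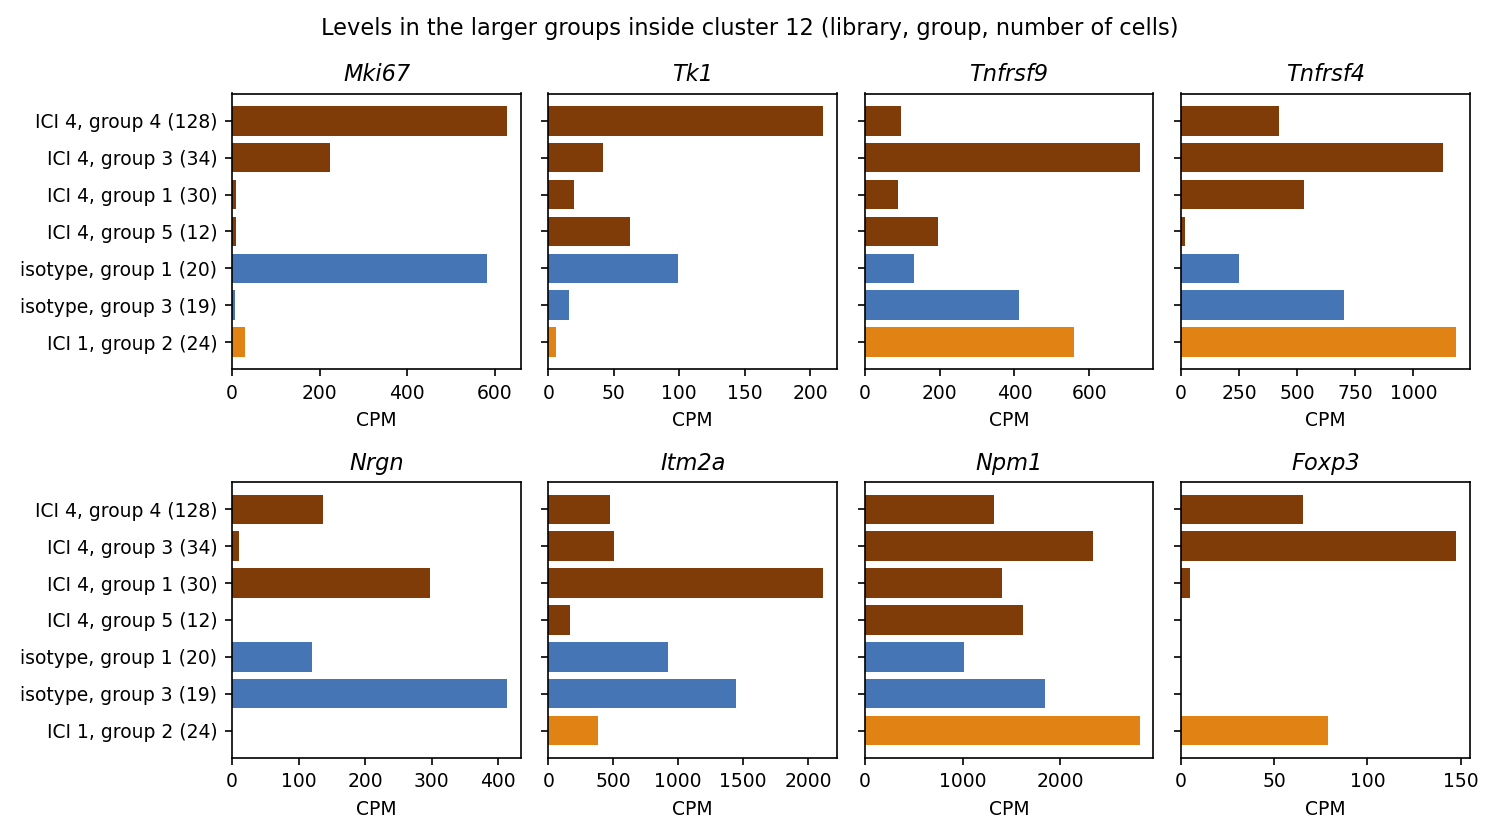
CPM of summed UMIs (horizontal axes) for 8 genes in the larger groups that each library's own grouping makes inside cluster 12, with the number of cells in brackets and 1 bar per group. Mki67 and Tk1 are high in ICI 4 group 4 and isotype group 1, Tnfrsf9, Tnfrsf4 and Npm1 in ICI 4 group 3 and ICI 1 group 2, and Nrgn and Itm2a in ICI 4 group 1 and isotype group 3.

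Within single cells, both receptors were found more often in cells with Foxp3 than in those without it. Cells with and without Nrgn differed less in both receptors. Of 49 cells with a Foxp3 UMI, 38 had Tnfrsf9, 46 had Tnfrsf4, 43 had Ctla4, 40 had Il2ra, 25 had Mki67 and 4 had Nrgn. In the 262 cells without Foxp3 these counts were 73, 132, 66, 32, 136 and 62. Mki67 was thus found in 51.0% of cells with Foxp3 and 51.9% of those without. Of 111 cells with Tnfrsf9, 38 had Foxp3, against 11 of 200 cells without it. Of 66 cells with Nrgn, 56 had Itm2a, 45 had Mki67, 44 had Tnfrsf4 and 20 had Tnfrsf9. In the 245 cells without Nrgn these counts were 149, 116, 134 and 91. Tnfrsf4 was thus found in 66.7% against 54.7% of cells, and Tnfrsf9 in 30.3% against 37.1%. Cells with Foxp3 were deeper, at a median of 12212 against 9047.5 UMIs, and so were those with Nrgn, at 11578.5 against 8949. Depth raises the chance of finding any gene, and its part in these counts was not tested.

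Coreceptor detection had an uneven background. Cd4 alone was found in 42.8% of ICI 4 cells, Cd8a alone in 30.2%, both in 9.77% and neither in 17.2%, and in isotype the counts were 18, 10, 7 and 9 of 44 cells. In cluster 7, where myeloid transcripts were most abundant, Cd8a was found in 58.1% of isotype cells at a median of 9932 UMIs, above the 38.6% of isotype cells in cluster 12 at 8930 UMIs. After each cell was thinned to 1000 UMIs, the ICI mean was 10.9% ± 2.20 for Cd4 against 22.7% in isotype, and 16.4% ± 2.66 for Cd8a against 18.2% (SD, n = 3). In cluster 7 of the isotype library the thinned shares were 14.0% for Cd4 and 20.2% for Cd8a. In cluster 14, where B cell transcripts were most abundant, Cd8a was found in 1 of 16 isotype cells, and in 6.85% of ICI 4 cells before and 2.74% after thinning, against 40% and 17.7% of ICI 4 cells in cluster 12. Detection of Cd8a in cluster 12 was thus below one reference cluster and above the other. Exact permutation tests over libraries gave p = 0.25 for Cd4, the smallest possible, and 0.75 for Cd8a, both 0.75 when adjusted over 6 genes.

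Foxp3 (chrX:7573644-7595245, + strand) was found in 6 of 30, 0 of 8, 0 of 14 and 43 of 215 cells of ICI 1 to 4, 20% in both ICI 1 and ICI 4. It was found in 0 of 44 isotype cells, which allows up to 6.82% of cells with a UMI and does not limit the cells that express it. The isotype library did hold Foxp3 cells elsewhere, in 16 of its 28 cells of cluster 4 (57.1%). In clusters not led by regulatory T cell genes, Foxp3 was found in 2 of 129 isotype cells of cluster 7 (1.55%), in 3 of 73 ICI 4 cells of cluster 14 (4.11%) and, in cluster 5, in 1.28% of 546 ICI 4 cells at a median of 14788.5 UMIs and in 5 of 63 ICI 1 cells (7.94%) at 4893 UMIs. Thinned to 1000 UMIs the cluster 12 shares were 10.0% in ICI 1, 4.19% in ICI 4 and 0 in isotype. Over the 3 ICI libraries with at least 10 cells left, the thinned mean was 4.73% ± 5.02 (SD, n = 3) with an exact permutation p = 0.75, where 3 libraries against 1 cannot go below 0.25. For Gzmb, Pdcd1 and Ifng the thinned means were 6.31%, 9.78% and 6.99%, against 4.55%, 6.82% and 0 in isotype, each with an exact permutation p = 0.75.

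Summed counts of ICI 1 and ICI 4, the ICI libraries with at least 20 cells, were then compared with isotype. Of 6932 genes tested, edgeR's quasi-likelihood test with Benjamini-Hochberg adjustment called 30 (0.433%), 13 higher (0.188%) and 17 lower (0.245%) under ICI, and 206 had an unadjusted p under 0.05. The median log2 fold change over all genes was 0.019. Both ICI libraries were above isotype for 2248 genes (32.4%) and below it for 2403 (34.7%). The calls fell into few kinds: genes of regulatory and effector T cells and of antibodies were higher, while class II, myeloid and parathyroid genes were lower. With all 5 libraries the test called 5 of 5479 genes (0.0913%), namely Cd74, H2-Ab1, Il1b, Lyz2 and Pth. Without the cells that held both T cell and myeloid genes it called 3 of 5719 (0.0525%), namely Foxp3, Igkv12-46 and Pth.

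Foxp3 was at 93.3, 0, 0 and 68.8 CPM in ICI 1 to 4 and at 0 in isotype, from 20, 0, 0, 187 and 0 UMIs. Over ICI 1 and ICI 4 this was at least 12-fold higher than the level of 3 UMIs in the isotype library, with adjusted p = 0.000338 by edgeR's quasi-likelihood test. ICI 2 and ICI 3 were not above isotype, and in the fit with all libraries the adjusted p was 1. In the cells left after those with T cell and myeloid genes were removed it was 0.0231, and it passed in 8 of 14 alternatives. Il2ra, the high-affinity chain of the interleukin 2 receptor (chr2:11642807-11693193, + strand), was at 196, 35.2, 70.0 and 99.7 CPM and at 18.1 CPM in isotype. All 4 ICI libraries were above isotype, with a log2 fold change of 2.98 (SE 0.74) and adjusted p = 0.0469 by edgeR. The isotype level rests on 5 cells, and without the cells that held T cell and myeloid genes the adjusted p was 0.58.

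Ly6a (chr15:74994877-74998031, - strand) was at 565, 3166, 2323 and 866 CPM and at 111 CPM in isotype, with a log2 fold change of 2.71 (SE 0.57) and adjusted p = 0.00639 by edgeR. All 4 ICI libraries were above isotype. Gzmk, a granule protease of effector T cells (chr13:113171608-113225908, - strand), was at 37.3, 809, 233 and 54.1 CPM and at 0 in isotype, at least 6.74-fold higher than 3 isotype UMIs over ICI 1 and ICI 4, with adjusted p = 0.00639 by edgeR. ICI 2 and ICI 3, which the test did not use, were the highest for both genes. Without the cells that held T cell and myeloid genes Ly6a had adjusted p = 0.201 by edgeR, and Gzmk no longer passed the filter for low counts. Jchain, the joining chain of secreted antibodies, passed with 873 UMIs in 1 cell of ICI 4. Of the 13 genes called higher 6 were immunoglobulin genes or Jchain, and 99.1% of their 10215 UMIs in ICI 4 lay in 1 cell.

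Among the lower genes, Pth, the parathyroid hormone, was at 0, 0, 0 and 4.41 CPM in ICI 1 to 4 and at 2379 CPM in isotype, where 98.9% of 1053 UMIs lay in 1 cell. Chga, a granule protein of endocrine cells, likewise had 92.9% of its isotype UMIs in 1 cell. These calls thus describe 1 isotype cell. Lyz2, the lysozyme of myeloid cells, was at 0, 0, 0 and 2.94 CPM and at 490 CPM in isotype, with a log2 fold change of -7.49, and 99.5% of its isotype UMIs lay in cells that also held several myeloid genes. Cd74, the invariant chain of class II presentation, was at 51.3, 70.3, 93.4 and 92.0 CPM and at 1138 CPM in isotype, with a log2 fold change of -3.90 and adjusted p = 8.18e-07 by edgeR. The 4 ICI libraries lay close together for Cd74, far below isotype.

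The same held for the other class II and myeloid genes past the threshold. H2-Ab1, H2-Aa and H2-Eb1 fell by 4.91, 4.73 and 3.76 on the log2 scale, and Il1b, Plbd1, Fn1, Tyrobp, Fcer1g, Ifitm3 and Plek fell by 3.08 to 8.48, although Fcer1g was at 315 CPM in ICI 3, which that test did not use. In isotype, 98.0% of the 973 UMIs of the called class II genes and 99.8% of the 480 UMIs of the called myeloid genes lay in the 10 cells with both kinds of marker. Over the whole myeloid list, summed levels were 168, 211, 735 and 193 CPM in ICI 1 to 4 and 1308 CPM in isotype, with 2 of 12 members at 0 in isotype. Without those cells Cd74 had a log2 fold change of 1.07 and did not pass. The class II median, -3.76 with all cells, then equalled the value of Cd74. How many class II genes were still tested is not given here, so it is not read as a result for the list. In ICI 4, 6.92% of the 419 UMIs of the called class II genes lay in cells with both kinds of marker, and 59.4% lay in 1 cell. Hist1h4d, a replication-dependent histone, was at 14.0, 70.3, 11.7 and 247 CPM against 876 CPM in isotype, with a log2 fold change of -2.59 and adjusted p = 0.0187 by edgeR.

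**Figure D4:**
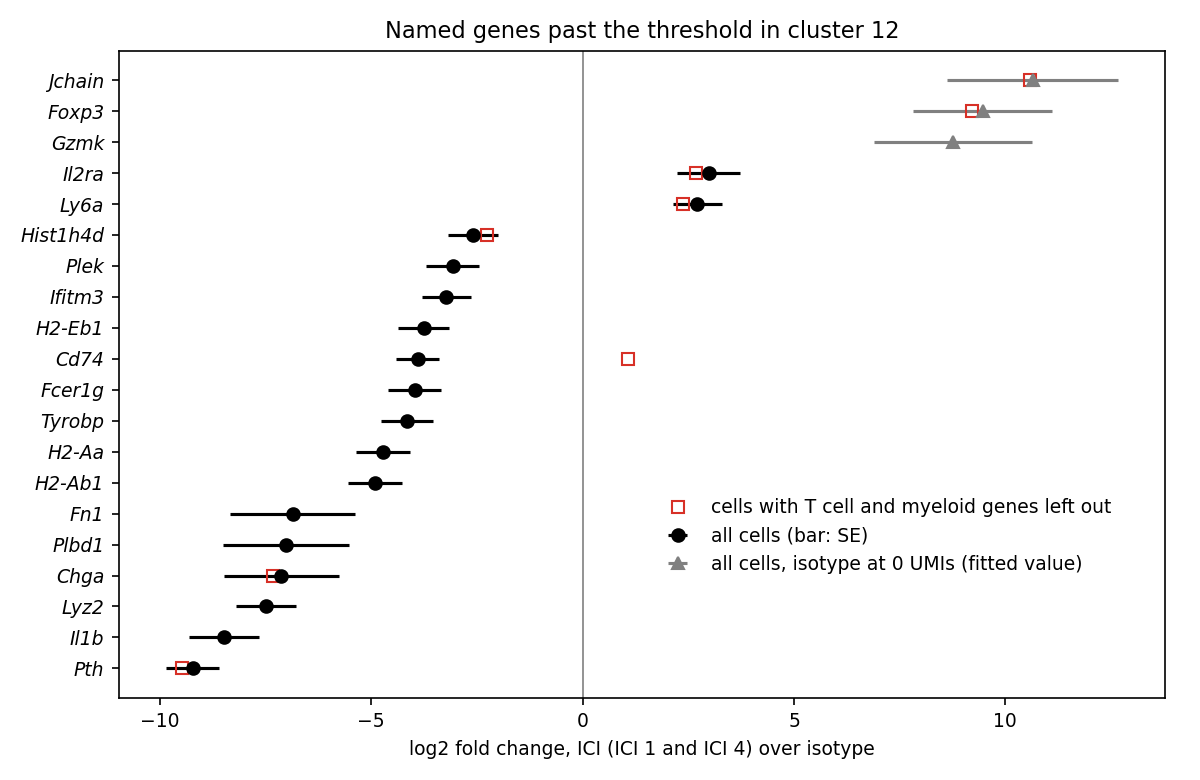
Log2 fold change of ICI 1 and ICI 4 over isotype (horizontal axis) for the named genes past the threshold, with bars for the SE, grey triangles where isotype had 0 UMIs so that the fitted value is no bound, and open squares for the fit without cells that held T cell and myeloid genes (none where the gene no longer passed the filter for low counts). Without those cells Il2ra and Ly6a go from 2.98 and 2.71 to 2.69 and 2.36 and no longer pass, and Cd74 goes from -3.90 to 1.07.

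The other called genes outside the naming rule were Gm2000, Trbv14, Trbv17, Xist, Ifitm2 and 5 immunoglobulin genes. Several genes of activated T cells were near the threshold without passing it. Ctla4, the target of one antibody, was at 88.7, 0, 0 and 267 CPM and at 27.1 CPM in isotype, with a log2 fold change of 2.78 and adjusted p = 0.0725 by edgeR. Xcl1, a chemokine, was at 201, 1266, 2743 and 150 CPM and at 29.4 CPM in isotype (2.57, adjusted p = 0.0873 by edgeR), with all 4 ICI libraries above isotype. Gzmb, a granule protease, was at 289, 0, 117 and 166 CPM and at 42.9 CPM in isotype, and its ICI 1 level came from 1 cell. Pdcd1, the gene of the other target, was at 51.3, 141, 222 and 168 CPM and at 74.5 CPM in isotype. Mki67 was at 397, 70.3, 140 and 494 CPM and at 420 CPM in isotype, and Myc at 205, 0, 0 and 111 CPM and at 124 CPM, so neither set ICI apart from isotype.

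Among the lists of T cell function, regulatory T cell genes had a median well above that of all genes in ICI 1 and ICI 4 against isotype. Of 8 regulatory T cell genes 7 were tested, with a median log2 fold change of 2.43 beside 0.019 over all genes. Of these 6 were higher in both ICI 1 and ICI 4, beside 32.4% of all genes, and 2 passed the threshold (Foxp3 and Il2ra). The member that was lower in both was Ikzf2, at 266 and 239 CPM against 341 CPM in isotype. Summed over the list, levels were 1335, 422, 350 and 1214 CPM in ICI 1 to 4 and 802 CPM in isotype. ICI 2 and ICI 3, which the test did not use, were thus below isotype, each with 4 of 8 members at 0. In the fit with all libraries the median was 2.00. Coinhibitory receptors had 7 of 10 members tested, a median of 1.04, 4 members higher in both libraries and 0 past the threshold, and costimulatory receptors 9 of 10, a median of 0.39, 3 higher and 2 lower in both, and 0 past it. Cytokines and chemokines had 9 of 18 tested and a median of 2.42 with 0 past the threshold, and the median was 0.99 with Ccl3, at 0 in isotype, set to the fold against 3 isotype UMIs. Among 8 of 10 cytotoxic genes tested, with a median of 0.86, Gzmk passed. The medians of the regulatory, coinhibitory and cytotoxic lists stayed at 2.43, 1.04 and 0.86 with Foxp3, Lag3 and Gzmk set to that fold.

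No member of the growth and cycle lists passed the threshold. DNA replication genes (30 of 30 tested) had a median of 0.067, mitosis genes (25 of 27) -0.43, ribosome biogenesis genes (15 of 15) 0.62 and glycolysis genes (12 of 13) 0.39. Both ICI libraries were below isotype for 14 of the 25 mitosis genes and above it for 1, beside 34.7% and 32.4% of all genes. For ribosome biogenesis they were above for 9 of 15 and below for 0, with Npm1 at 2296 and 1459 CPM against 1224 CPM. These medians differed between the libraries. With ICI 4 alone and ICI 1 alone they were 0.066 and 0.98 for ribosome biogenesis and -0.010 and -1.42 for mitosis. For DNA replication they were 0.45 and -0.47. Class I presentation genes had a median of 0.45, with 9 of 12 above isotype in both libraries, 0 below and 0 past the threshold.

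The few cluster 12 cells of ICI 2 and ICI 3 differed from those of ICI 1, ICI 4 and isotype. Genes of naive, recirculating T cells summed to 1512, 246, 292 and 3188 CPM in ICI 1 to 4 and to 3490 CPM in isotype. Ccr7, the lymph node homing receptor, was at 546, 0, 11.7 and 1058 CPM and at 1129 CPM in isotype. ICI 2 and ICI 3 were thus lowest for these genes. Tissue migration genes summed to 2245, 8090, 6736 and 2593 CPM and to 1900 CPM in isotype, with Cxcr6, a receptor of tissue-resident T cells, at 107, 1899, 1179 and 48.2 CPM against 20.3 CPM. Cytotoxic genes summed to 1148, 4748, 3771 and 1175 CPM against 655 CPM in isotype, so all 4 ICI libraries were above isotype for tissue migration and cytotoxic sums. Natural killer cell genes summed to 9.33, 0, 514 and 34.2 CPM against 52.0 CPM in isotype, and gamma-delta T cell genes to 4.67, 598, 374 and 44.5 CPM against 102 CPM. ICI 3 was thus highest for natural killer cell genes, and ICI 2 and ICI 3 for gamma-delta T cell genes. ICI 2 and ICI 3 hold 8 and 14 cells and 11 of the 15 shared barcodes, and the part of these and of the other cell types' markers in the levels was not tested.

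**Figure D5:**
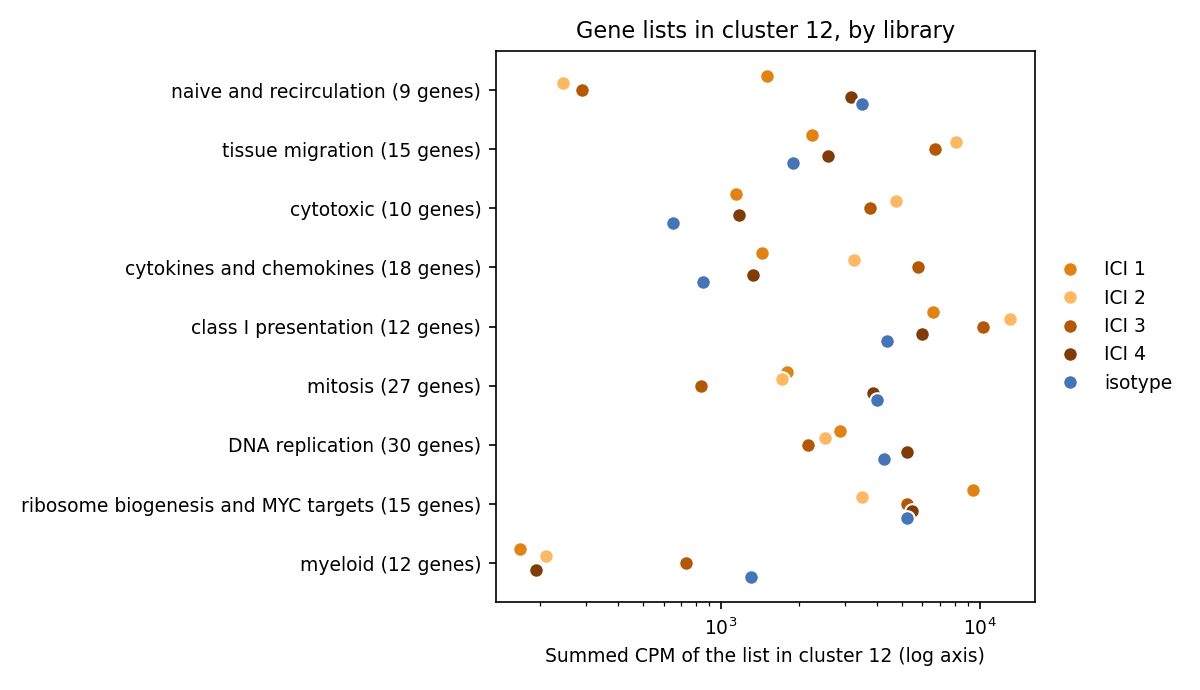
Summed CPM of each gene list in cluster 12 (horizontal log axis), 1 point per library. ICI 2 and ICI 3 lie apart, with 246 and 292 CPM for naive genes and 8090 and 6736 CPM for tissue migration genes, and isotype is the lowest library for cytotoxic genes (655 CPM) and the highest for myeloid genes (1308 CPM).

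Whether the ICI difference was particular to cluster 12 was tested against clusters 5 and 4, with the library as a block. Cluster 5 was chosen for its many cycling cells. Cluster 4 was chosen because its leading genes include members of the same receptor family. Likeness between clusters was not measured, and cluster 8, with Tnfrsf9 at 213 CPM, was not compared. Against cluster 5, the other cycling cluster, 7 of 9968 genes (0.0702%) passed edgeR's quasi-likelihood test of the difference, namely Pth, Hba-a1, Trbv26, Cd83, Tg, Ccl4 and Igfbp7. Foxp3 did not pass there (adjusted p = 1 by edgeR). Against cluster 4, 29 of 7729 genes (0.375%) passed. For Foxp3 the difference was 8.91 on the log2 scale with adjusted p = 0.0182 by edgeR, a fitted value since isotype cluster 12 held 0 UMIs. In cluster 4 Foxp3 was at 379 and 374 CPM in ICI 1 and ICI 4 and at 245 CPM in isotype, so it was present under both treatments there.

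Tk1 also passed against cluster 4, by 5.16 (SE 1.0) with adjusted p = 0.000299 by edgeR. In cluster 12 it was at 79.3 and 166 CPM in ICI 1 and ICI 4 and 67.8 CPM in isotype, and in cluster 4 at 0 and 5.76 CPM against 72.0 CPM. The isotype level in cluster 4 rests on 10 UMIs in a sum over 28 cells. Other genes of DNA replication passed in the same direction, chosen after their values were seen: Cdc6 (8.53), E2f8 (7.66), Dtl (4.30) and Rrm2 (3.95). So did Batf (3.70) and Id3 (3.71), factors of activated and of memory T cells. Lyz2, H2-Aa, H2-Ab1, Cd74, H2-Eb1 and Ifitm3 passed with differences of -12.82 to -4.82, and these are the genes whose isotype UMIs lay mostly in cells with myeloid genes. Their part in the test was not tested separately.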

How the data were processed

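Single-cell transcripts were counted with a droplet 5′ kit in 5 libraries, per the labels. The deposited table holds raw UMI counts of 18767 genes in 10275 cells. Cell Ranger and Seurat were used with build mm10, per the submitters' processing notes, and versions are not given in the sources used here. The deposited cell table gives each cell's library, cluster (resolution 0.4), own-library group and phase call, per the file headers. The authors' deposited cell cycle score values, mitochondrial percent values and log values in the cell table were not reported.

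Counts were summed over the cluster 12 cells of each library, with at least 20 cells required. These sums were tested with edgeR 4.0.16 in R 4.3.3 (quasi-likelihood, TMM, filterByExpr), and p-values adjusted after Benjamini and Hochberg were called under 0.05. Differences between clusters were tested as a cluster by treatment term with the library as a block. Shares of cells were compared by exact permutation over libraries (scipy 1.17.1), and cells were thinned to 1000 UMIs once with a fixed seed, which left out 3 cluster 12 cells, all of ICI 3. Clopper-Pearson 95% intervals cover counting error only, as do upper limits at a count of 0 (3 counts of the total). Summed depth in ICI 1 was 214285 UMIs against 2718726 in ICI 4, so its levels are less precise. No doublet caller was run, and cells with at least 2 T cell and 2 myeloid genes were counted and left out in an alternative. Tested on simulated data for this comparison (6335 genes), the edgeR step found 36% of changes of 4-fold and 94% of changes of 16-fold, and 11 of its 141 calls were false. Changes were set only in better-counted genes, and every gene was given the same dispersion. Counts that lie mostly in 1 cell were not simulated, so these rates do not carry over to such calls.

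Genes named were the 25 largest folds over other cells, the 15 largest changes in each direction past the threshold with both ICI libraries on the same side of isotype, a set of T cell genes and members of described lists whatever their result, and the 10 genes most like Tnfrsf9. Receptor segments, mitochondrial, ribosomal protein and unnamed genes were left out of these rankings. Not every gene under these rules is reported here. The members and all 31 gene lists were chosen with earlier results of these data known. Alternatives were RLE scaling, DESeq2 1.42.0, no filter on low counts, other cell minimums, libraries left out or summed, and sets of cells or genes removed.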

Additional observations from a re-analysis of the deposited data

Results flagged for a closer look

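In the 4 ICI libraries, 10 of 44 levels examined had 1 library whose distance from the nearest other was a large share of the group's range (Dixon's criterion for 4 values), where chance flags about 1 in 20 such groups. Jchain stood at 321 CPM in ICI 4 from 1 cell. Fcer1g, a signalling chain of myeloid and natural killer cells, stood at 315 CPM and Egr2, a factor induced by receptor signals, at 187 CPM in ICI 3. The other levels were low in every ICI library: Pth at 4.41 CPM, Lyz2 at 2.94 CPM, Il17a at 2.21 CPM, Il1b at 0.736 CPM and Chga and Plbd1 at 0.368 CPM each in ICI 4, and Fn1 at 4.67 CPM in ICI 1. For these 7 genes the other ICI libraries were at 0, so the distance equals the whole range and the flag follows at any level. The count of 10 therefore cannot be read against the rate of 1 in 20. Summed depth was 2718726 UMIs in ICI 4 and 28431 to 214285 in ICI 1 to 3, which limits how low a level can be seen.

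Among named genes, the ICI difference in cluster 12 differed from that in cluster 5 for Pth, by -6.96 on the log2 scale. It differed from that in cluster 4 for Foxp3 (8.91), Tk1 (5.16), Pth (-6.46), Lyz2 (-12.82), H2-Ab1 (-10.13), H2-Aa (-11.73), Cd74 (-6.38), H2-Eb1 (-4.82) and Ifitm3 (-5.13), each by edgeR's quasi-likelihood test of the difference. The isotype sum of cluster 4 comes from 28 cells.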

How the results depend on the processing

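The number of genes called depended on the processing. The 30 calls became 39 under RLE scaling, 37 without shared barcodes, 41 with only cells called S or G2M and 32 without receptor, ribosomal and mitochondrial genes. They became 5 with DESeq2, 55 with no filter, 4 with at least 10 cells, 5 with all libraries, 3 with ICI 1 to 3 summed, 3 without cells that held T cell and myeloid genes and 18 when the cell with the most UMIs was left out for each gene, 15 of these among the 30. With at least 10 cells (alternatives added after seeing the data) the count ran from 0 without ICI 4, where edgeR's quasi-likelihood test gave 292 genes at an unadjusted p under 0.05, through 1 without ICI 1 to 30 without ICI 3. Differences from cluster 5 numbered 13 under RLE scaling, 19 with no filter and 4 with all libraries, against 7, and those from cluster 4 ran from 23 to 28, against 29. Apart from the settings that tested fewer genes or samples, the cause was not tested.

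The share difference kept its sign when ICI libraries were left out in turn (-1.98 to -0.768 points), as did the S or G2M difference (-12.7 to -8.19 points). The thinned Cd8a difference was 10.4 points at 2000 UMIs, against -1.79 at 1000, and the Pdcd1 difference, 2.96 points, ran from -1.24 without ICI 3 to 7.85 without ICI 1. The cause was not tested.

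Over the 20 named genes past the threshold, 176 of 303 alternative values stayed past it in the same direction, 108 lost it, 16 moved and 3 changed sign, not counting the comparison within groups given last below. Ctla4 passed in 5 alternatives (lowest adjusted p 0.00326) and Gzmb in 2. Log2 fold changes that changed sign follow. With DESeq2 they were Asf1b -0.014 and Tnf 0.23. With ICI 1 to 3 summed they were Asf1b -0.031, Cd8a 0.15, Mki67 -0.055 and Myc -0.015, and with all libraries Asf1b -0.38, Cd8a 0.15, Mki67 -0.52 and Myc -0.34. With at least 10 cells they were Asf1b -0.22, Cd8a 0.43, Mki67 -0.25 and Myc -0.12. The same without ICI 1 gave Asf1b -0.026, Cd8a 0.84, Fcer1g 0.10, Mki67 -0.35, Myc -0.77, Tnfrsf4 -0.24 and Tnfrsf9 -0.070, and without ICI 4 Asf1b -1.09, Cd8a 0.54, Fcer1g 0.20, Mki67 -0.63 and Myc -0.11. Without cells that held T cell and myeloid genes they were Asf1b -0.20, Cd4 0.20 and Cd74 1.07. With only cells called S or G2M Tnf was at 0.057, and without shared barcodes at 0.40. Leaving out ICI 1 or ICI 4 leaves 1 library against isotype and values with no test, which ran from -0.056 to 1.29 for Tnfrsf9, -0.90 to 0.49 for Asf1b, -0.33 to 0.091 for Cd4, -1.03 to 0.23 for Cd8a, -0.53 to 1.19 for Pdcd1, -0.55 to 0.84 for Tnf, -0.14 to 0.72 for Myc, -1.0 to 0.037 for Nr4a1, -0.082 to 0.25 for Mki67 and -1.21 to 0.11 for Top2a. In each library's own group with the most Mki67 (ICI 4 against isotype, added after seeing the data) they were Cd74 1.35, Cd8a 0.28, Fcer1g 6.71, H2-Eb1 6.99, Ifitm3 1.04, Il1b 2.46, Nrgn 0.22, Plek 7.04, Tnfrsf9 -0.40 and Tyrobp 6.65. The cause was not tested.

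No paired analysis was possible because isotype has 1 library, so the groups share fewer than 2 replicate numbers. Depth limits ICI 1 to 3 most, with 8 to 30 cells each.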
